A study of Mus musculus with 6 samples.

Results

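The heat shock proteins and their co-chaperones were followed in the left ventricles of adult mice. The members were all protein-coding mouse genes whose symbol begins with Hspa, Hspb, Hsp90, Dnaja, Dnajb or Dnajc followed by a letter or digit, together with Hspd1, Hspe1, Hsph1 and Bag1 to Bag6. The rule used symbols only and found 79 of the 43629 counted genes, of which 68 passed the filter on low counts and were tested. By family, 12 members were Hspa genes (11 tested), 8 Hspb genes (7 tested), 3 Hsp90 genes, 4 Dnaja genes, 13 Dnajb genes (9 tested), 28 Dnajc genes (23 tested) and 6 Bag genes. Hspd1, Hspe1 and Hsph1 formed another group of 3, and Hspbp1 and Hspbap1, which are partners of the heat shock proteins and not small heat shock proteins themselves, were kept apart as a group of 2. Hspa14 was not analysed here.

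Heat shock proteins are chaperones, which hold or refold other proteins. The 70 kDa class (Hspa) binds short exposed stretches of a client protein and releases them in a cycle driven by ATP: J proteins (Dnaja, Dnajb, Dnajc) bring clients and trigger ATP hydrolysis, and exchange factors such as the Bag proteins and Hsph1 open the cycle again. The small heat shock proteins (Hspb) hold unfolding proteins without ATP and are abundant in heart muscle, where they associate with the sarcomere, while heat and other protein stress switch on a subset of these genes through the transcription factor Hsf1.

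The RNA came from left ventricles of 6 male CD-1 mice aged 1 year, the first generation after exposure, 3 born to dams injected with saline (vehicle) and 3 to dams injected with 20 mg/kg caffeine in the same vehicle. Injections were intraperitoneal and given once daily from E6.5 to E9.5, although another field of the labels ends the exposure a day later. The mice themselves received no caffeine as adults, CD-1 is an outbred stock, and the sources used here do not say which dam each heart came from, so hearts of the same litter cannot be told apart from independent ones and the p-values measure only the spread between these hearts. The comparison asks whether exposure before birth goes with a different level of chaperone mRNA in the adult ventricle. The total counts ran from 7613011 to 10483101 per heart, and each caffeine total was below each vehicle total. The members took between 1.39% and 1.48% of all counts in a heart. Values are given as CPM (counts scaled to a common library size with TMM factors, which correct for differences in composition between libraries), and in bulk tissue fewer cells of a type and less RNA per cell cannot be told apart. Ventricular identity was checked on markers: Myl7 and Sln, which mark atrial muscle, were at or below 0.235 CPM in each heart, and 6 cardiomyocyte markers summed to between 43320 and 52080 CPM. Of the other atrial markers Myl4 overlapped, and Nppa, which ventricles make too, stood at 51.3 to 180.2 CPM in vehicle and 266.3 to 433.1 CPM in caffeine hearts.

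The chaperones were first ordered by level, in mean CPM per kilobase of exon over the 6 hearts, since a longer mRNA collects more counts. Small heat shock proteins led. Hspb7, a small heat shock protein of heart and skeletal muscle, stood at 1864 CPM per kilobase (SD 89.2, n = 6), followed by Hspb6 (also called Hsp20), a target of cyclic AMP-dependent kinase, at 812.5 (SD 111) and by Hspb8, the partner of Bag3 in the disposal of damaged muscle proteins, at 471.6 (SD 38.5). The constitutive cytosolic Hsp90ab1 came next, at 371.8 CPM per kilobase (SD 34.8). The gaps between these 4 genes exceeded the SD of either neighbour.

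Below them, Bag1 at 187.5 CPM per kilobase (SD 13.2) and Bag3 at 163.7 (SD 22.2), both exchange factors for Hspa proteins, differed by about the spread between hearts. Hspa9 (mitochondrial, 124.2, SD 10.2), Hspa5 (the Hsp70 of the endoplasmic reticulum, 123.8, SD 5.98) and Dnaja2 (a cytosolic J protein, 116.7, SD 8.61) also did not differ beyond their spread. Hspb2, at 93.2 CPM per kilobase, was the tenth, and its level carries a limit. Its exons share 252 bases with Cryab on the opposite strand, and the sources used here do not say whether the counting used strand, so reads of the 2 genes in that stretch cannot be told apart. With the length of the longest transcript in place of merged exons, the same 10 genes led, with Hspa9 moving above Bag3. For some members below these 10, shared sequence limits the level. Of the windows of 75 bases, the length of a read, 46.4% of those of Hspb1, 42.8% of Hsp90aa1 and 33.1% of Hspa8 occur in other genes. The places of such members in the order are uncertain. At the other end, Dnajb7, Dnajb8, Dnajc5g and Dnajc22 had no count in any of the 6 hearts, where 3 counts would be 0.286 to 0.394 CPM.

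**Figure D1:**
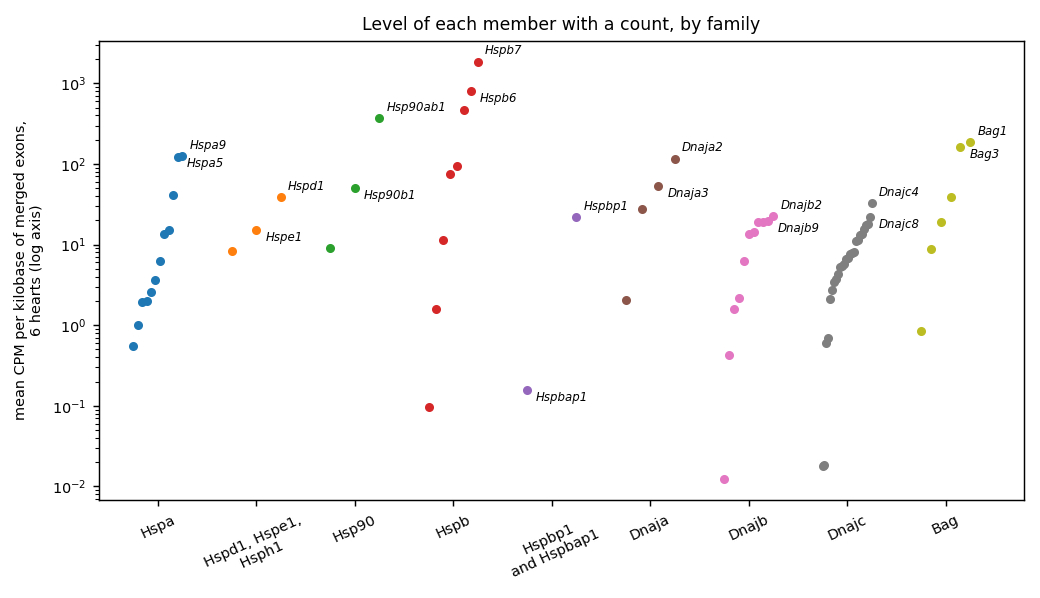
Mean level of each member with a count, in CPM per kilobase of merged exons over 6 hearts (log axis), grouped by family; the leading genes of each family are named. Small heat shock proteins span the widest range, from Hspb9 near the bottom to Hspb7 at 1864, and Dnajc genes lie at 32.8 or below.

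The caffeine and vehicle hearts were then compared. No member passed an adjusted p below 0.05 with a change above 1.5-fold (0 of 68, with edgeR's quasi-likelihood test), against 14 of 13092 genes, or 0.107%, called in the same comparison over all genes. The exact and likelihood ratio tests of edgeR each called 1 member, Hspa1b, against 0.718% and 0.771% of all genes. DESeq2, limma-voom and the robust quasi-likelihood test called 0 members (0.512%, 0.107% and 0.122% of all genes). At an unadjusted p below 0.05 there were 9 members, 13.2% of those tested, where 8.82% of all genes were. Of these, 7 had higher values in the caffeine hearts (Hspa1b, Hspb1, Dnajb4, Dnajb1, Hspb6, Hspb8 and Dnajb11), against 4.42% of all genes on that side, and 2 had lower values (Dnajc1 and Dnajc7), against 4.4%. For 53 of the 68 members the 95% interval of the change lay within 1.5-fold either way (77.9%, against 63.0% of all genes), so for most members a larger change lies outside the interval.

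The hearts themselves separated more often on the higher side. In 12 members (17.6%, against 7.11% of all genes) each caffeine heart was above each vehicle heart: Hspa1b, Hspb1, Hspb3, Hspb8, Hspb11, Dnajb1, Dnajb4, Dnajb11, Dnajc14, Dnajc19, Dnajc27 and Bag3. In 1 member, Dnajc7 (1.47%, against 7.12%), each caffeine heart was below. These shares are descriptions of genes measured in the same 6 hearts. With libraries scaled by their totals only, 6 members lay above (3.06% of all genes did) and 5 below (14.0% of all genes), and the median over all genes was then -0.08. Signs of small differences were not stable: the log2 fold change of 34 of the 68 members changed sign when some heart was left out. The median log2 fold change was 0.04 over the members and 0.00 over all genes. By family it was 0.28 for Hspb, 0.13 for Hspa, 0.07 for Dnajb, 0.08 for Dnaja, 0.04 for Hsp90, 0.00 for Dnajc and -0.02 for Bag. With 3 hearts against 3, the smallest p that an exact two-sided permutation test of a single gene can give is 0.1.

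**Figure D2:**
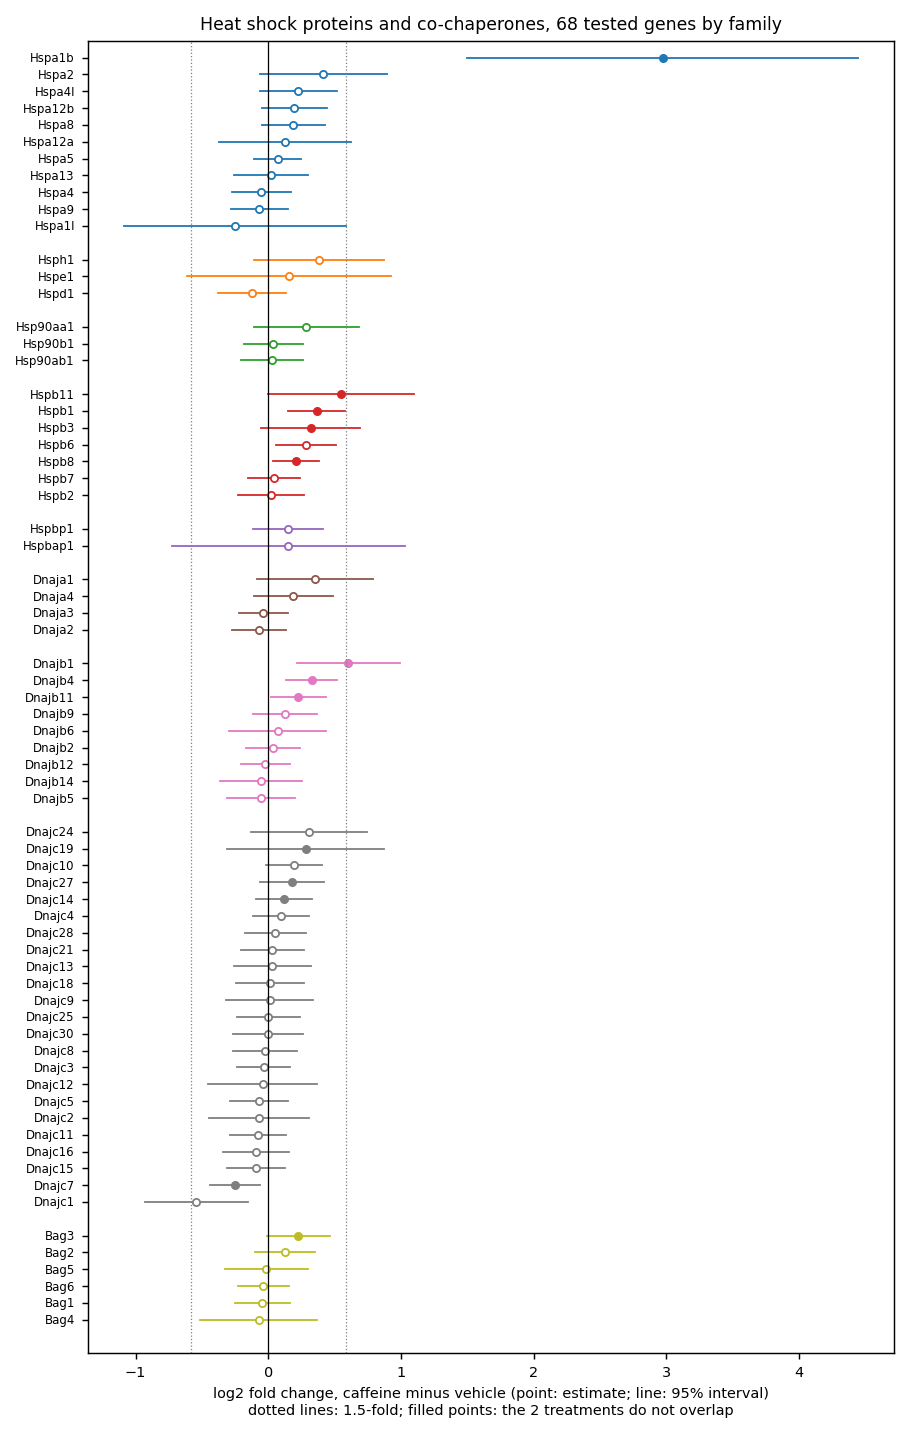
Log2 fold change of each of the 68 tested members, caffeine minus vehicle (point), with its 95% interval (line), ordered within families; filled points mark members whose 3 caffeine hearts lie all above or all below the 3 vehicle hearts, and dotted lines mark 1.5-fold. Hspa1b stands apart at 2.97, the Hspb points lie above 0 (with library totals only, Hspb2 and Hspb7 lie below), and most intervals of the other families cross 0.

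The largest difference was in the inducible Hsp70 genes. Hspa1b (ENSMUSG00000090877, chr17:34956436-34959238 of GRCm38) and Hspa1a (ENSMUSG00000091971, chr17:34969190-34972156) are neighbouring genes that encode the stress-induced Hsp70 and are barely expressed in resting tissue. Their promoters are shown here, since the pair separated furthest in these hearts. The 150 bases before the RefSeq start of each (GRCm38.p6, minus strand) were as follows, with capitals marking a 2-unit match to the heat shock element, the site of Hsf1.
Hspa1a chr17:34972157-34972306: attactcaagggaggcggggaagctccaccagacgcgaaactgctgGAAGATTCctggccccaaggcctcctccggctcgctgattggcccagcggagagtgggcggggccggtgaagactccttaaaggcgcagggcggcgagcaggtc
Hspa1b chr17:34959239-34959388: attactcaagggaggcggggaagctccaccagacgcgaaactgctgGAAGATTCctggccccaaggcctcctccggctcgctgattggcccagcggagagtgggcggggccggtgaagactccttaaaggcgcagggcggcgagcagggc

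The 2 stretches differed at 1 of 150 bases, and over the 250 bases before the start at 3. Both held the match at the same place, 104 bases before the start. Heat shock elements are repeats of the unit GAA in alternating orientation. The letters searched were GAANNTTC and TTCNNGAA for 2 units, each its own reverse complement and so read on both strands, and the same letters extended by NNGAA or NNTTC for 3 units, so that each 3-unit match holds 2-unit matches. They were sought in windows from 250 bases before to 50 after each RefSeq start. Such windows were at hand for 64 of the 79 members. A 2-unit match was present in 17 of them, 26.6%, against 17.0% of 27025 genes, and a 3-unit match in 4 (Hspd1, Hspe1, Dnajb6 and Hsph1), 6.25%, against 0.662%. The 3-unit matches of Hspd1 and Hspe1 are the same run of bases, read on opposite strands and counted for each gene. A match is a run of letters and not a measured site.

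Hspa1b stood at 1.37, 1.14 and 1.22 CPM in the vehicle hearts and at 3.92, 21.3 and 3.75 CPM in the caffeine hearts. The treatments did not overlap, and caffeine replicate 2 lay far above the other two caffeine hearts. The log2 fold change was 2.97 (SE 0.67, 95% interval 1.501 to 4.44), with an unadjusted p of 0.000997 and an adjusted p of 0.176 in edgeR's quasi-likelihood test. Without caffeine replicate 2 it was 1.62. The adjusted p was 0.00133 in edgeR's exact test, 0.000852 in the likelihood ratio test, 0.0696 in DESeq2 and 0.36 in limma-voom, so the call rests on the test.

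Hspa1a was too low for the filter, with 7, 3 and 7 counts in the vehicle hearts and 8, 48 and 14 in the caffeine hearts. These are 0.684, 0.284 and 0.709 CPM against 1.12, 5.42 and 1.64 CPM, again without overlap and again highest in caffeine replicate 2. The pair cannot be separated cleanly. Of the 75-base windows, the length of a read, 61.7% of those of Hspa1a and 55.8% of those of Hspa1b occur in another gene, most often in each other. Summed, the pair gave 2.05, 1.42 and 1.93 CPM in vehicle and 5.04, 26.8 and 5.39 CPM in caffeine hearts, a log2 fold change of 2.80 (SE 0.62, adjusted p = 0.169 in the quasi-likelihood test). Hspa1l, the third gene of this cluster on chromosome 17 and known from the testis, did not separate. It measured 4.201, 2.08 and 1.82 CPM in vehicle and 1.96, 3.05 and 1.76 CPM in caffeine hearts, which overlapped. Vehicle replicate 1 was the highest heart. Among the caffeine hearts replicate 2 was again the highest, at 1.64 times the mean of the others. Of the 75-base windows of Hspa1l 71.1% occur in other genes.

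The other members of the Hspa family showed smaller differences. Hspa8, the Hsc70 that all cells use and that stress can raise further, had 61.7, 56.7 and 66.9 CPM in the vehicle hearts and 66.9, 79.7 and 64.3 CPM in the caffeine hearts. The treatments overlapped, and the log2 fold change was 0.19 (SE 0.11, adjusted p = 0.669). Of its 75-base windows 33.1% occur in other genes (14 of them), so its counts are uncertain. Hspa5, in the endoplasmic reticulum, differed by 0.07 and Hspa9, in mitochondria, by -0.07 on the log2 scale, with 95% intervals within 1.5-fold. Hspa9 had 601.9, 513.7 and 528.0 CPM in vehicle and 471.5, 558.5 and 537.8 CPM in caffeine hearts, which overlapped. Hspa4l, an Hsp110-class exchange factor, had 70.4, 60.6 and 74.6 against 64.8, 92.7 and 82.7 CPM (log2 fold change 0.23, adjusted p = 0.673). Its treatments overlapped too, as did those of Hspa2, Hspa4, Hspa12a, Hspa12b and Hspa13, whose log2 fold changes ran from -0.05 to 0.42.

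The small heat shock proteins had the highest family median, 0.28, which ran from 0.19 to 0.34 as each heart was left out in turn. All 7 tested members had a log2 fold change above 0, from 0.02 (Hspb2) to 0.55 (Hspb11) where 50.2% of all genes did. Summed over the 8 genes, the family held 8085, 7579 and 7656 CPM in the vehicle hearts and 8652, 8340 and 8377 CPM in the caffeine hearts, without overlap. This separation depended on the TMM scaling: as a share of all counts the family took 0.788% to 0.819% in the vehicle and 0.807% to 0.840% in the caffeine hearts, which overlapped. With library totals only, Hspb2 (-0.06) and Hspb7 (-0.04) also lay below 0. Hspb7 made up most of the sum. None of the 7 passed the adjusted p, and 3 had an unadjusted p below 0.05 (42.9%, against 8.82% of all genes).

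Hspb1 (Hsp25 in the mouse, chr5:135887919-135889563), which protects actin filaments, had 64.8, 65.1 and 70.8 CPM in vehicle and 83.2, 95.4 and 79.7 CPM in caffeine hearts. Each caffeine heart was higher, with replicate 2 the highest. The log2 fold change was 0.36 (SE 0.10, 95% interval 0.15 to 0.58, unadjusted p = 0.00307, adjusted p = 0.257 in the quasi-likelihood test). Of its 75-base windows 46.4% are shared, mainly with the pseudogene Hsp25-ps1. Hspb8 (chr5:116408491-116422864) had 874.1, 831.8 and 854.9 CPM in vehicle and 962.7, 1010.0 and 984.6 CPM in caffeine hearts. The gap between the treatments was wider than the range within either, and the log2 fold change was 0.21 (SE 0.08, unadjusted p = 0.022, adjusted p = 0.441). This gap depended on the TMM scaling. As a share of all counts, caffeine replicate 1 (6877 of 7613011) lay below vehicle replicate 3 (8439 of 9228359), so the treatments overlapped.

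Hspb6 (chr7:30552178-30555443) had 1878, 1526 and 1649 CPM in vehicle and 1878, 2220 and 2057 CPM in caffeine hearts. Vehicle replicate 1 equalled the lowest caffeine heart to 4 digits, so the treatments met, and the log2 fold change was 0.28 (unadjusted p = 0.019, adjusted p = 0.422). Hspb3, which pairs with Hspb2 in muscle, had 7.43, 8.52 and 8.10 against 8.82, 12.0 and 9.15 CPM. Its caffeine hearts lay above, with a log2 fold change of 0.32 (adjusted p = 0.638). Hspb11 is a small protein of intraflagellar transport despite its name. It had 3.32, 2.56 and 2.23 CPM in vehicle and 3.92, 3.84 and 4.10 CPM in caffeine hearts, apart by little at low level (log2 fold change 0.55, SE 0.25, unadjusted p = 0.0508, adjusted p = 0.57).

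The most abundant member, Hspb7, had 5172, 5074 and 4997 CPM in vehicle and 5628, 4931 and 5163 CPM in caffeine hearts. Caffeine replicate 2 was the lowest of the 6 and caffeine replicate 1 the highest, and the log2 fold change was 0.04 (SE 0.09, 95% interval -0.15 to 0.24). Hspb2 overlapped as well, with a log2 fold change of 0.02 that ran from -0.07 to 0.11 as each heart was left out. Cryab, the alpha-B crystallin of the same protein class, lies outside the symbol rule. It had 2031, 1726 and 1791 CPM in vehicle and 2216, 2146 and 2192 CPM in caffeine hearts, which lay above (log2 fold change 0.24, unadjusted p = 0.0216, adjusted p = 0.439).

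The stretches before the starts of Hspb1 and Hspb6 are shown because both had an unadjusted p below 0.05 and a 2-unit match (capitals) before the start. A link between the matches and the values was not tested. They come from the plus strand of GRCm38.p6, and the GENCODE span of Hspb6 starts further upstream than the RefSeq start used.
Hspb1 chr5:135887769-135887918: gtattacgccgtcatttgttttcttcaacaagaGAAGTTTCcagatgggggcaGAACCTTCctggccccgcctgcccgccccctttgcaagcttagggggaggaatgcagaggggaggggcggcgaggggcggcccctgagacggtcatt
Hspb6 chr7:30553151-30553300: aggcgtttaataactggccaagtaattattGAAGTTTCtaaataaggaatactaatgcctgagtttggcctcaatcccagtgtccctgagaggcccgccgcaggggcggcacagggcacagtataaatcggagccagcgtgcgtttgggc

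Hspb1 held 2 matches, 117 and 97 bases before the start, and Hspb6 held 1, at 120 bases. Windows of Hspb3 and Hspb8 also held a 2-unit match, the latter just after the start. No 3-unit match was found in an Hspb window.

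**Figure D3:**
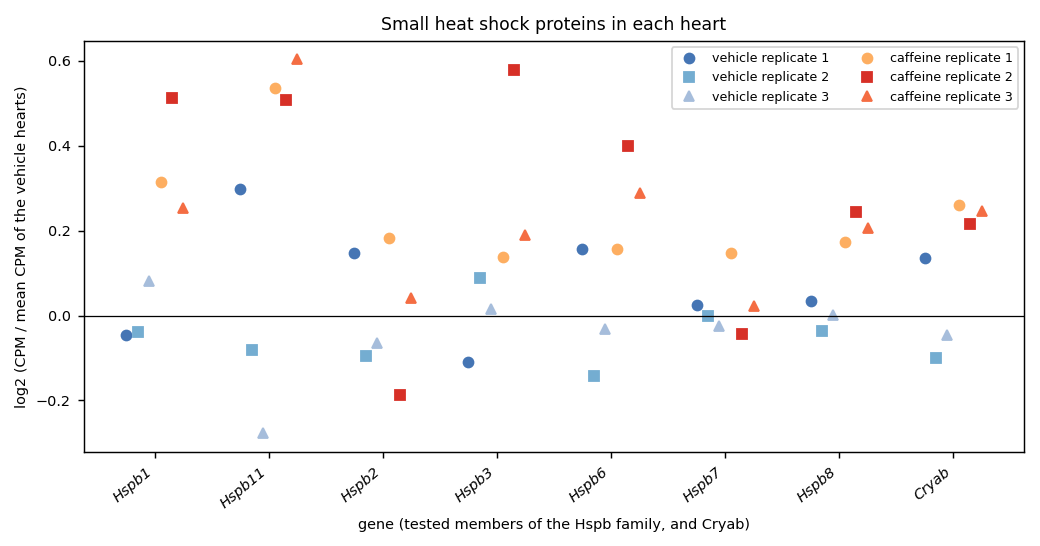
CPM of each heart relative to the mean of the vehicle hearts (log2) for the 7 tested Hspb genes and Cryab; blue symbols are vehicle and orange to red symbols caffeine hearts. Hspb1, Hspb3, Hspb8, Hspb11 and Cryab show all caffeine hearts above all vehicle hearts, while Hspb2 and Hspb7 are mixed.

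The Hsp90 genes overlapped between treatments. Hsp90ab1, the constitutive cytosolic form, had 1252, 1016 and 1046 CPM in vehicle and 1026, 1231 and 1118 CPM in caffeine hearts. The log2 fold change was 0.03 (SE 0.11), and its sign turned when vehicle replicate 2 or 3 or caffeine replicate 2 was left out. Hsp90aa1, the stress-induced form, had 31.9, 28.2 and 37.4 against 30.0, 51.4 and 36.9 CPM. Only caffeine replicate 2 stood outside the vehicle range on the higher side (log2 fold change 0.29, SE 0.18, adjusted p = 0.703), and 42.8% of its 75-base windows occur in other genes. Hsp90b1 (Grp94), in the endoplasmic reticulum, differed by 0.04 on the log2 scale, and by -0.06 to 0.11 as each heart was left out.

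Among J proteins, the smallest unadjusted p-values of the quasi-likelihood test were those of Dnajb4 and Dnajb1, both of the Dnajb family. Dnajb1, the inducible Hsp40 that partners Hsp70 (chr8:83608193-83612653), had 15.9, 17.0 and 14.8 CPM in vehicle and 20.3, 31.6 and 20.4 CPM in caffeine hearts. All caffeine hearts were higher and replicate 2 stood above the others. The log2 fold change was 0.60 (SE 0.18, 95% interval 0.21 to 0.99, unadjusted p = 0.00583, adjusted p = 0.302 in the quasi-likelihood test), and 0.35 without caffeine replicate 2. None of its 75-base windows occurs in another gene.

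Dnajb4, a related cytosolic J protein (chr3:152178511-152210302), had 116.6, 108.4 and 113.7 CPM in vehicle and 130.5, 150.6 and 144.4 CPM in caffeine hearts. Here the 3 caffeine hearts were closer together, and the log2 fold change was 0.33 (SE 0.09, 95% interval 0.14 to 0.52, unadjusted p = 0.00313, adjusted p = 0.257). Without caffeine replicate 2 it was 0.28. Dnajb11, a J protein of the endoplasmic reticulum that works with Hspa5, had 38.6, 40.6 and 40.2 against 50.1, 45.4 and 44.4 CPM. The treatments did not overlap, with caffeine replicate 1 the highest (log2 fold change 0.23, SE 0.09, unadjusted p = 0.0342, adjusted p = 0.525). Dnajb2, the Dnajb gene with the highest level per kilobase, had 102.7, 89.7 and 93.4 against 104.9, 92.0 and 96.4 CPM, which overlapped. Dnajb5, Dnajb6, Dnajb9, Dnajb12 and Dnajb14 overlapped as well, with log2 fold changes from -0.06 to 0.12.

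In the Dnaja family no member separated. Dnaja1, a cytosolic co-chaperone of Hspa8, had 14.7, 13.6 and 18.3 CPM in vehicle and 16.2, 26.4 and 16.7 CPM in caffeine hearts. Caffeine replicate 2 alone exceeded the vehicle range (log2 fold change 0.35, adjusted p = 0.656, and 0.08 without that heart). Dnaja2 had 371.1, 341.9 and 354.0 against 301.0, 369.4 and 345.6 CPM, with a log2 fold change of -0.07. Dnaja3, in mitochondria, differed by -0.04 and Dnaja4 by 0.19, and Dnaja4 shares 42.01% of its windows, with Wdr61.

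Promoter stretches of Dnajb4 (minus strand, 60 bases) and Dnaja4 (plus strand, 110 bases) show how differently placed the letters are: Dnajb4 had 1 match, 14 bases before the start, and Dnaja4 had 2, at 90 and 52 bases.
Dnajb4 chr3:152193846-152193905: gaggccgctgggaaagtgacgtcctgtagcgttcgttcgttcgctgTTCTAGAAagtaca
Dnaja4 chr9:54699449-54699558: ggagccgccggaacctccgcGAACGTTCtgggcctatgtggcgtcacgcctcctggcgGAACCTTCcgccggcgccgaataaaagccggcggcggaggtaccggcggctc

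No match was found in a Dnajb1 window. The GENCODE span of Dnajb4 begins upstream of the RefSeq start used.

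The Dnajc family, the largest and most varied, was centred on no difference: 12 of its 23 tested members had a log2 fold change above 0, and the median was 0.00. The only member of the whole set whose caffeine hearts lay below belonged here. Dnajc7, a J protein that binds Hsp70 and Hsp90 at once (chr11:100582818-100620168), had 57.9, 61.0 and 56.1 CPM in vehicle and 49.8, 49.6 and 47.8 CPM in caffeine hearts. Both groups were tight and apart, with a log2 fold change of -0.25 (SE 0.09, 95% interval -0.44 to -0.06, unadjusted p = 0.0152, adjusted p = 0.4 in the quasi-likelihood test). The exons of Dnajc7 share 287 bases with Nkiras2 and 154 with Cnp on the opposite strand, where reads cannot be told apart without the strand setting.

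Dnajc1, a J protein in the membrane of the endoplasmic reticulum (chr2:18195654-18392830), had the most negative value, with 42.9, 31.1 and 39.8 CPM in vehicle and 19.3, 26.5 and 31.9 CPM in caffeine hearts. Caffeine replicate 3 lay above vehicle replicate 2, so the treatments overlapped. The log2 fold change was -0.54 (SE 0.18, 95% interval -0.93 to -0.16, unadjusted p = 0.0104, adjusted p = 0.352), and it ran from -0.72 to -0.38 as each heart was left out in turn.

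On the higher side, Dnajc14 had 34.9, 32.7 and 35.6 CPM in vehicle and 37.1, 35.8 and 39.1 CPM in caffeine hearts. The separation was narrow (log2 fold change 0.12, adjusted p = 0.794), and 17.3% of its windows are shared, mostly with Ormdl2. Dnajc27, a Rab-like protein with a J domain, had 28.1, 26.4 and 28.0 against 34.6, 29.2 and 29.8 CPM (log2 fold change 0.18, adjusted p = 0.684). Dnajc19, part of the motor that imports proteins into mitochondria, separated narrowly, at 1.86, 2.18 and 2.43 against 2.94, 2.48 and 2.46 CPM (log2 fold change 0.28, adjusted p = 0.828). Before scaling these were 19, 23 and 24 counts in vehicle and 21, 22 and 21 in caffeine hearts. Its exons share 178 bases with Fxr1 on the opposite strand, where reads cannot be told apart without the strand setting. Dnajc4, the Dnajc gene with the highest level per kilobase, had 39.8, 38.7 and 39.4 against 43.4, 38.7 and 43.9 CPM, and caffeine replicate 2 fell within the vehicle range.

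Grouped by place, the J proteins and Hsp70s of the organelles showed little. The 10 tested chaperones of the endoplasmic reticulum had a median log2 fold change of 0.03, with 1 (Dnajb11) above and 0 below without overlap, and with 2 (Dnajb11 and Dnajc1) at an unadjusted p below 0.05. The 8 mitochondrial ones had a median of -0.05, with 1 (Dnajc19) above. Over all tested genes 7.11% lay above without overlap, and 8.82% had an unadjusted p below 0.05. Of J proteins tied to vesicles (Dnajc5 and Dnajc13 tested, Dnajc6 not) and to splicing or the ribosome (3 tested), none separated or reached an unadjusted p below 0.05. Dnajc6, the auxilin of nerve terminals, had at most 4 counts in a heart.

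The mitochondrial chaperonin Hspd1 (Hsp60) and its lid Hspe1 (Hsp10) are transcribed away from each other, with 215 bases between their RefSeq starts. That stretch is shown with the run of heat shock units in capitals, read on the strand of Hspe1 (plus), and is followed by the 100 bases before the Hsph1 start (minus strand), since these were among the 4 members with a 3-unit match. In Hsph1 the 3-unit match lay 36 bases after this start, outside the bases printed, and the capitals mark a 2-unit match 33 bases before it.
Hspe1 chr1:55087933-55088147: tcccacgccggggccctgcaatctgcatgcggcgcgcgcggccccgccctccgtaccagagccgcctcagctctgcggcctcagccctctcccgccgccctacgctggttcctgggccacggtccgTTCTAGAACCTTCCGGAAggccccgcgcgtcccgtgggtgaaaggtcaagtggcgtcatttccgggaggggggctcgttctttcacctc
Hsph1 chr5:149636337-149636436: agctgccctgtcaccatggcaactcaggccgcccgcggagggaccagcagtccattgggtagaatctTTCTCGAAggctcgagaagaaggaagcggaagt

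Hspd1 had 116.4, 96.8 and 110.0 CPM in vehicle and 85.5, 113.7 and 96.8 CPM in caffeine hearts. Hspe1 had 16.0, 12.3 and 35.3 against 27.3, 15.1 and 28.6 CPM. Both overlapped (log2 fold changes -0.13 and 0.16, adjusted p = 0.82 and 0.945), and the pair did not run in parallel across hearts despite the shared stretch: Hspe1 was highest in vehicle replicate 3, Hspd1 in vehicle replicate 1. Of the 75-base windows, 31.0% of those of Hspd1 and 14.6% of those of Hspe1 occur in other genes. The GENCODE span of Hspd1 begins upstream of the RefSeq start used and covers the stretch shown. In GENCODE the exons of Hspd1 and Hspe1 share 112 bases on opposite strands. Without the strand setting, reads of the pair there cannot be told apart. Hsph1, the inducible Hsp110, had 60.3, 38.2 and 60.2 CPM in vehicle and 51.0, 94.4 and 61.0 CPM in caffeine hearts. Caffeine replicate 2 stood well above the other 5 hearts (log2 fold change 0.38, SE 0.22, adjusted p = 0.673, and 0.08 without that heart).

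Of the Bag family, exchange factors of the Hsp70 cycle, Bag3 separated. Bag3 holds Hspb8 and Hsp70 at the Z disk of muscle (chr7:128523616-128546981). It had 400.0, 373.6 and 386.7 CPM in vehicle and 401.5, 529.9 and 424.6 CPM in caffeine hearts. Caffeine replicate 1 exceeded vehicle replicate 1 by less than the spread of the vehicle hearts. The log2 fold change was 0.23 (SE 0.11, unadjusted p = 0.0598, adjusted p = 0.593), and 0.09 without caffeine replicate 2. Bag1 had 275.2, 240.8 and 254.0 against 273.4, 234.9 and 239.0 CPM. Bag1, Bag2, Bag4, Bag5 and Bag6 overlapped, with log2 fold changes from -0.07 to 0.13. Hspbp1, an exchange factor too, had 39.1, 42.3 and 37.4 against 50.1, 37.4 and 44.7 CPM, and caffeine replicate 2 was level with the lowest vehicle heart.

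The stress-inducible chaperones were also read as a group: Hspa1a, Hspa1b, Hspa4l, Hspa8, Hsph1, Hspb1, Hsp90aa1, Dnaja1, Dnajb1, Dnajb4, Hspd1, Hspe1 and Bag3. The list also holds genes that resting hearts express at a steady level, such as Hspa8 and Hspd1. It was chosen with earlier results of these data known. Of the 12 tested, 11 had a log2 fold change above 0, against 50.2% of all genes, and the median was 0.31. With caffeine above, 5 separated (Hspa1b, Hspb1, Dnajb1, Dnajb4 and Bag3), which is 41.7%, against 7.11% of all genes. Caffeine replicate 2 had the highest value of the 6 hearts in 10 of the 12, where it was the highest in 15.2% of all tested genes and in 13 of the other 56 members. Its level was 5.56 times the mean of the other two caffeine hearts for Hspa1b, 3.92 times for Hspa1a, 1.69 times for Hsph1, 1.61 times for Dnaja1, 1.55 times for Dnajb1 and 1.54 times for Hsp90aa1. A ratio above 1.5 was found in 3.16% of all tested genes. In Hspd1 and Hspe1 a vehicle heart was the highest, and Hspe1 had its lowest caffeine value in caffeine replicate 2.

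Without caffeine replicate 2 the median of the 12 was 0.10. In the fit without it, 4 of the 12 had an unadjusted p below 0.05 on the higher side (4.69% of all genes), and 5 separated (13.4% of all genes). Over the members as a whole, 7 of 68 then had such a p (10.3%) and 17 separated upward, against the same 13.4% of all genes. Of the 12, 11 still had a log2 fold change above 0, at lower values in most.

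**Figure D4:**
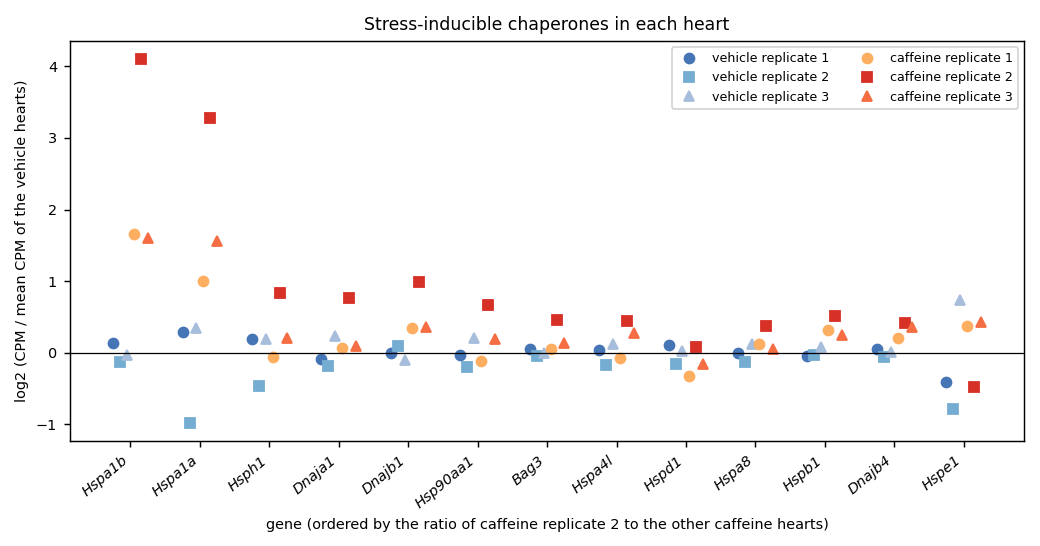
CPM of each heart relative to the mean of the vehicle hearts (log2) for 13 stress-inducible chaperones, ordered by how far caffeine replicate 2 (red square) exceeded the other caffeine hearts. The red square is on top in 11 of the 13 genes shown, and for Hspa1b, Hspa1a, Dnajb1, Hspb1, Dnajb4 and, narrowly, Bag3 the other caffeine hearts also lie above all vehicle hearts.

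Genes around the chaperones were read from lists. Hsf1, the transcription factor of the heat shock response, had 33.3, 34.7 and 33.4 CPM in vehicle and 39.3, 36.0 and 36.9 CPM in caffeine hearts. The caffeine hearts lay above by little (log2 fold change 0.14, unadjusted p = 0.156, adjusted p = 0.717), and neither Hsf2 nor Hsf4 separated. The median of 17 Hsp90 co-chaperones was 0.03. Of them 3 (17.6%) separated upward (Stip1, Sgta and Tomm34), against 7.11% of all genes, and 1 (5.88%) downward, against 7.12%. The latter was Fkbp5, a co-chaperone of steroid receptors that glucocorticoids induce, with 149.3, 100.4 and 114.2 CPM in vehicle and 95.3, 61.1 and 95.5 CPM in caffeine hearts (log2 fold change -0.53, unadjusted p = 0.0135, adjusted p = 0.384). Of the 7 tested subunits of the CCT chaperonin, which folds actin and tubulin, 1 separated upward (Cct3), and of the 6 prefoldin subunits 0 did.

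Of 18 folding partners in the endoplasmic reticulum, 2 separated upward (11.1%, against 7.11% of all genes). Both had an unadjusted p below 0.05, as did 4.42% of all genes on the higher side. Sdf2l1, which joins the complex of Hspa5 and Dnajb11, had 2.54, 2.65 and 3.24 CPM in vehicle and 3.92, 4.63 and 5.28 CPM in caffeine hearts (log2 fold change 0.72, unadjusted p = 0.0126, adjusted p = 0.372). P4hb, a protein disulfide isomerase, had 253.5, 241.0 and 259.9 against 277.3, 291.7 and 290.8 CPM (log2 fold change 0.19, adjusted p = 0.533). Of 8 mitochondrial partners, Grpel2 separated upward and Clpb downward (12.5% each, against 7.11% and 7.12% of all genes).

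Genes of other lists also differed in value between the treatments, and their part in the values above was not tested. Of the immediate early genes, which tissue handling can raise, all 7 tested had a log2 fold change above 0, 6 with an unadjusted p below 0.05 and 5 without overlap. Over all genes 50.2% were above 0, 4.42% had such a p on the higher side and 7.11% separated upward. The immediate early genes summed to between 168.9 and 184.5 CPM in vehicle and 208.6 and 248.8 CPM in caffeine hearts. Their lowest caffeine sum was in caffeine replicate 2, the heart with the most Hspa1b. Fos, the one of them with the highest log2 fold change (1.18), was however highest in that heart, at 5.76 CPM against 4.06 and 3.64 CPM in the other caffeine hearts. The 6 fibroblast markers were above 0 in all cases and summed to between 844.3 and 1006 against 1091 and 1250 CPM. The 6 macrophage markers, also all above 0, summed to between 159.4 and 257.9 against 203.7 and 389.2 CPM. An unadjusted p below 0.05 was found for 4 fibroblast and 2 macrophage markers, and 2 of each list separated upward. In both lists caffeine replicate 2 had the lowest caffeine sum. The sums of the 6 cardiomyocyte markers overlapped, at 43590 to 52080 against 43320 to 47050 CPM. Of these markers 1 (Actc1) separated upward (16.7%, against 7.11% of all genes), and 5 had a log2 fold change below 0. Of the 6 endothelial, 4 smooth muscle and 4 tested erythroid markers, 0 separated or had an unadjusted p below 0.05.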

How the data were processed

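Poly(A) RNA of 6 left ventricles was sequenced as single reads of 75 bases. Per the labels and the methods, the authors ran FastQC, aligned reads to mm10 (GRCm38) by TopHat2 and deposited raw counts per gene from HTSeq on Ensembl release 79, in 1 file per heart. Versions and the strand setting are not given in the sources used here.

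From those counts, genes were filtered (filterByExpr, minimum count 10, minimum total 15), scaled by TMM and fitted with edgeR 4.0.16 (R 4.3.3), using glmQLFit and glmQLFTest on 3 caffeine and 3 vehicle hearts without covariates. Adjusted p-values are Benjamini-Hochberg values over all 13092 tested genes, and every adjusted or unadjusted p of a gene comes from this quasi-likelihood test unless another is named. A gene was called at an adjusted p below 0.05 and a change above 1.5-fold. The biological coefficient of variation was 12.1%. Each heart was treated as a sample. Hearts of one treatment differed by more than sampling noise (chi-square per degree of freedom 5.37 to 14.0), which does not show that they came from different litters. Alternatives used edgeR's exact, likelihood ratio and robust tests, DESeq2 1.42.0, limma 3.58.1 (voom), other scalings and filters, a replicate block and each heart left out. The quasi-likelihood, robust, exact, likelihood ratio, voom and DESeq2 tests had been tried on simulated counts with the main filter. The other scalings and filters, the replicate block and the fits with a heart left out had not. Counts of members without caffeine replicate 2, the summed Hspa1 pair and the transcript length were added after seeing the data.

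Symbols, positions and merged exon lengths are from GENCODE release 21 (mouse series M), shared 75-base windows from its transcripts, and promoter windows from RefSeq (GRCm38.p6). Per-heart values are given for members called, for up to 3 separated members a family, for the highest level of each family, for the stress-inducible list, for Dnajc1 and for the smallest adjusted p. The members and lists were chosen with earlier results of these data known. Other members and genes named beside these were chosen after their values were seen. Protein sequences were not analysed here.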

Additional observations from a re-analysis of the deposited data

How the results depend on the processing

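No member was called under the robust quasi-likelihood test, DESeq2, limma-voom, other size factors or library totals. The same held for at least 10 counts in every heart, for no fold threshold in the main fit and with any heart left out. The exact test and the likelihood ratio test each called 1 member (Hspa1b), and no filter on low counts called 2 (Hspa1b and Hspa1a). Over the alternative fits the smallest adjusted p was 0.00764 for Dnajb1 and 0.00188 for Dnajc1. Each came from a quasi-likelihood fit, and neither gene was called there. The replicate numbers did not pair the hearts (correlations of same-numbered deviations 0.045, -0.03 and -0.0375), 2 of the 3 caffeine hearts went more closely with another number, and with the replicate block 0 members were called. Scaling by library totals only gave 6 members above and 5 below without overlap (3.06% and 14.0% of all genes). It shifted the median of all genes to -0.08. Family medians were then -0.11 (Bag), -0.0815 (Dnajc), -0.0451 (Hsp90), -0.0133 (Dnajb) and -0.0116 (Dnaja), and those of the other families stayed above 0. The log2 fold change of 14 of the 68 members changed sign, among them Dnajb2 (-0.0474), Hsp90ab1 (-0.0528) and Hspb7 (-0.0414). As each heart was left out, 16 to 19 members lay above and 1 to 4 below, and the shares of all genes rose too, to between 11.2% and 13.4% above and 10.8% and 13.3% below. In these fits the log2 fold change ran from -0.116 to 0.00917 for Bag1, -0.138 to 0.00717 for Dnaja2, -0.0167 to 0.0934 for Dnajb2, -0.0432 to 0.126 for Hsp90ab1, -0.119 to 0.00477 for Hspa9, -0.00998 to 0.0863 for Hspb7 and -0.118 to 0.736 for Hspe1, changing sign. For Hspa1b it ran from 1.62 (without caffeine replicate 2) to 3.36. Of the 27 tested members chosen by the naming rule, 20 kept their sign in these fits and under library totals. Over all 68, 32 did. The Hsp90 median ran from -0.0303 to 0.126. The cause was not tested. At this depth the intervals of low members such as Hspb11, Hspbap1 and Dnajc19 reach past 1.5-fold.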
